A study of Mus musculus with 5 samples.

Results

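Interferon-stimulated genes are the genes that cells switch on when they sense an interferon. A list of 38 of them was followed here through the cells of the mouse kidney after unilateral ischemia-reperfusion (UIR) injury. Members were found by their symbol among the 32285 genes of the deposited count matrix, and 37 of the 38 had a row. Mx1, which encodes an antiviral GTPase, had none and is not described further. The rule that chose the members used no measured value.

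Type I interferons bind a receptor of Ifnar1 and Ifnar2 chains, and type II interferon (interferon-gamma, encoded by Ifng) binds one of Ifngr1 and Ifngr2 chains. Both receptors pass the signal through JAK kinases to STAT proteins. STAT2 and IRF9 are parts of ISGF3, which binds the interferon-stimulated response element (ISRE), while the response to interferon-gamma runs through the gamma-activated sequence (GAS). The products sense foreign nucleic acid, block translation, attack intracellular pathogens, or feed back on the pathway.

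The study profiled kidney cells by droplet-based 3′ single-cell RNA sequencing in 5 groups, a sham operation and UIR at day 1, day 3, day 14 and day 28. The labels give 1 sample per group, from the kidneys of 3 mice, and a value cannot be traced to an animal. The study's methods describe more matrices than the libraries held here, and whether a library joins several of them is not given in the sources used here. All 5 samples were whole dissociated kidney of C57BL/6J mice with red blood cells lysed, and the labels give no genotype or drug that sets them apart. The deposited matrix held 5 libraries, told apart only by a number at the end of the barcode. No source used here ties that number to the sham group or to a day. The libraries are therefore called 1 to 5, their values stand side by side, and no test, no mean over libraries and no comparison between days was made.

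Across the libraries 57511 cells were kept, 8248 to 18892 per library, with a median of 4624 unique molecular identifiers (UMIs, each standing for a captured mRNA molecule) per cell and library medians from 4038.0 to 5338.5. The labels call the cell type "Goblet cell". Of 7 goblet markers, Zg16 had 0 UMIs and Muc2 had 21 in all kept cells, so the cells were named by kidney and immune markers instead. A cell was placed in an immune class or in endothelium when at least 3 markers of that class had a UMI. Another class was weighed against it only if that class also reached 3 markers, and then had to show a clearly smaller share of its markers. Exactly 3 markers were seen in 55 of the dendritic cells and 77 of the monocytes. Tubule cells were those with at least 50 proximal tubule marker UMIs per 10000 or at least 2 markers of a distal segment, and no member served as a marker. This gave 1379 neutrophils, 281 monocytes, 1108 macrophages, 119 dendritic cells, 1706 lymphocytes, 359 endothelial cells and 43771 tubule cells. Another 8539 cells were placed in no gate, 5447 of them in library 3 and 231 to 1418 in each of the other libraries. Levels are UMIs of a gene summed over the cells of a class and divided by all UMIs of that class, given per 1000000 UMIs (CPM). Their 95% intervals cover counting error only and treat UMIs as independent. Between libraries, 350 of 57160 barcode sequences occurred more than once (0.6123%).

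ISRE letters are common near the starts of these genes. The motifs searched were GAAA, any 2 letters (NN) and GAAA again for the ISRE, which is TTTC, NN and TTTC on the opposite strand, and TTCNNNGAA for the GAS, which reads the same on both strands. Overlapping matches were each counted. The windows ran from 250 bases before to 50 bases after the gene start in RefSeq (GRCm38.p6), and 31 of the 38 members had one. ISRE letters were present in 20 of the 31 members (64.52%) and in 3.99% of 27025 genes. GAS letters were present in 6 of the 31 (19.35%) and in 9.55% of genes. A match describes the letters of a window and is neither a bound site nor a cause of the levels given here. The stretches shown are from members that recur in the results, 5′ to 3′ on the gene's strand, with ISRE letters in capitals, or GAS letters in the case of Irf1.
Isg15 (chr4:156200863-156200908, minus strand): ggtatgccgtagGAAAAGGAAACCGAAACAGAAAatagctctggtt
Ifit1 (chr19:34640773-34640825, plus strand): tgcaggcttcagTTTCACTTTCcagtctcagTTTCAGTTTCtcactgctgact
Ifit3 (chr19:34583361-34583428, plus strand): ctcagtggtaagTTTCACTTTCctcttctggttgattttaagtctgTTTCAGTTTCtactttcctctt
Ifit3b (chr19:34607757-34607824, plus strand): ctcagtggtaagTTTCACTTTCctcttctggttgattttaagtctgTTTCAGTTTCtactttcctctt
Bst2 (chr8:71537575-71537614, minus strand): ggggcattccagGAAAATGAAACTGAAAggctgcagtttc
Oas1a (chr5:120907526-120907557, minus strand): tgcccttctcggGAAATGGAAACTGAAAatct
Ifi205 (chr1:174031868-174031901, minus strand): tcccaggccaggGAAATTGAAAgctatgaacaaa
Irf1 (chr11:53769912-53769944, plus strand): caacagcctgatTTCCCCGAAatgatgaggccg

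The Isg15 stretch held 3 overlapping ISRE matches, which began 78, 72 and 66 bases before the start. In Bst2 a GAS match began 136 bases before the start and ran into the first ISRE match. The Ifit3 and Ifit3b stretches were the same over 68 bases and each held 2 matches, with both genes in the IFIT cluster on chromosome 19. Irf1 carried GAS letters and no ISRE letters in its windows. Gbp5 and Gbp7 each carried 2 GAS matches and 1 ISRE match. Neither motif was found in 9 of the 31, among them Irf7, Irf9, Oasl2, Cmpk2 and Xaf1, which says only that these letters are not in these windows. Ifi27l2a, Ifi204, Oas2, Usp18, Rtp4, Zbp1 and Mx1 had no window in the table used. Close copies also limit the counts. Of the stretches of 25 bases in the last 500 bases of the Ifi211 transcript, where 3′ reads fall, 89.08% occurred in Ifi205, and 30.04% of those of Ifit3 occurred in Ifit3b, so the split of UMIs within these gene pairs is uncertain.

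Summed over the pooled cells, the members were highest in endothelium and lowest in tubule. Their summed level was 3694.3 CPM in endothelium (95% interval 3611.2 to 3778.8). Among the immune classes it was 2408.9 CPM in monocytes (2316.5 to 2504.0), 1898.6 in dendritic cells (1801.1 to 2000.0), 1898.4 in macrophages (1863.8 to 1933.5), 1729.8 in lymphocytes (1686.9 to 1773.6) and 1490.8 in neutrophils (1438.7 to 1544.4). Dendritic cells and macrophages did not differ beyond their intervals. Tubule stood far below every other class at 82.55 CPM (81.46 to 83.66). The pooled order of endothelium and monocytes changed without library 3, when they measured 4473.9 and 4663.5 CPM. Library 3 held 214 of the 281 monocytes. Within it endothelium (1836.2 CPM) was not above monocytes (1845.4) or macrophages (1942.9). In library 2 endothelium was above monocytes, at 4669.7 against 4111.6 CPM. Without Ifi27l2a monocytes measured 1524.4 CPM, and neutrophils measured 917.5 CPM when cells that also passed the tubule gate were kept.

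**Figure D1:**
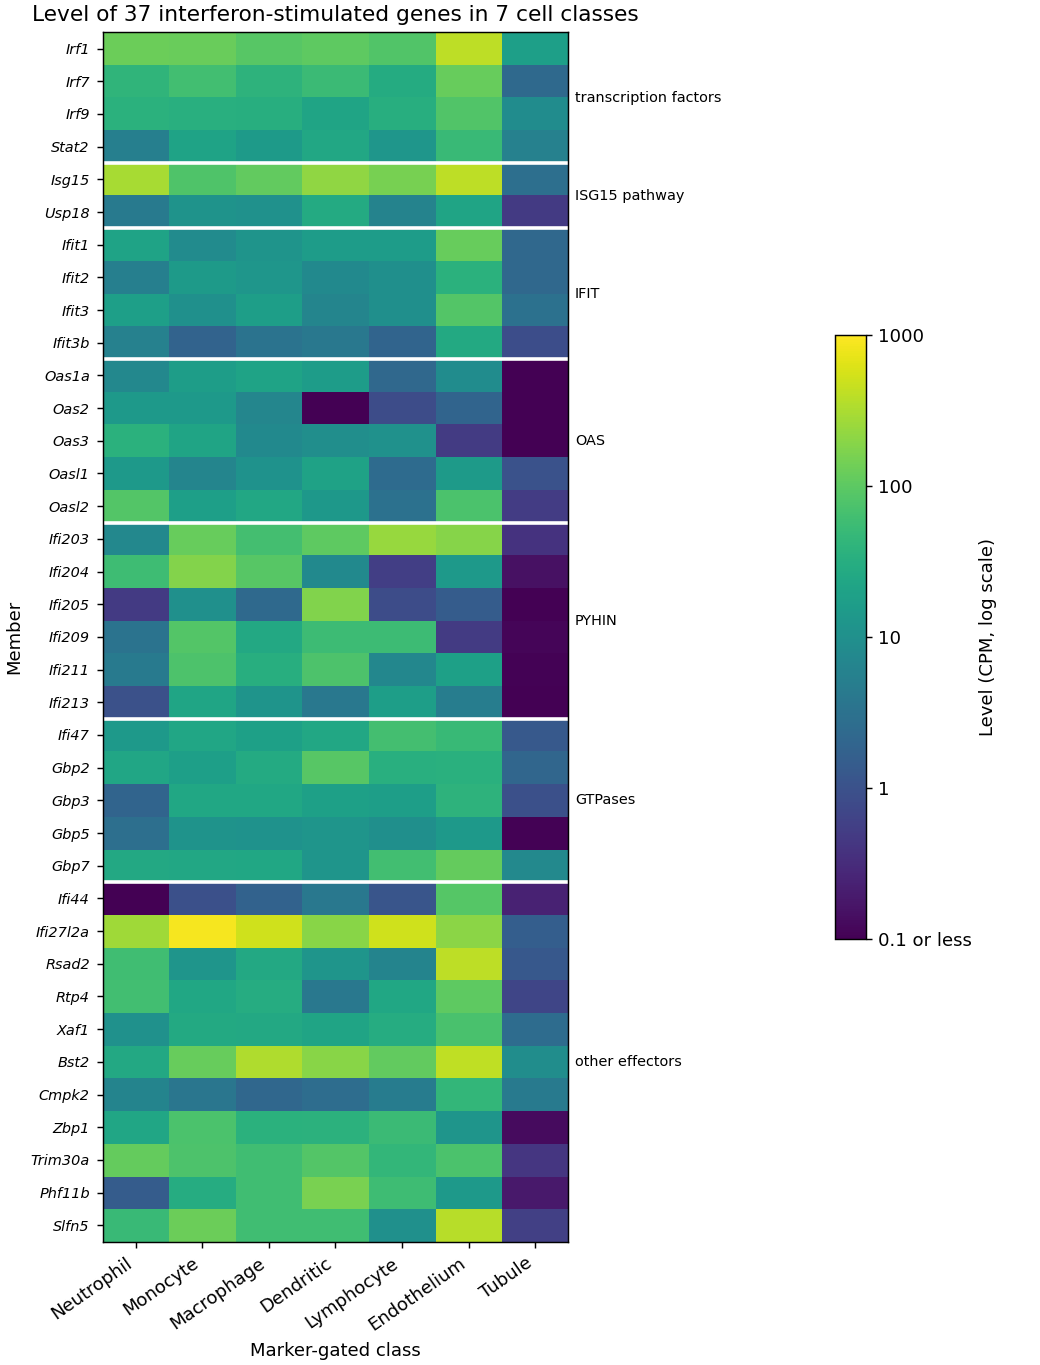
Level of each of the 37 measured members (rows, grouped by role) in the 7 marker-gated classes (columns), as CPM on a logarithmic colour scale that ends at 0.1 CPM. The endothelium column is highest for 19 members and the tubule column for 0.

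Endothelium held the highest level of 19 of the 37 members, against 31.3% of 17033 genes that were highest there. Monocytes held the highest level of 6 members (6.66% of genes), dendritic cells of 5 (7.02%), neutrophils of 4 (8.61%), lymphocytes of 2 (13.5%) and macrophages of 1 (5.91%). Tubule held the highest level of 0 members and of 27% of genes. For 8 members the highest class did not stand apart from the next one, since the interval of their log2 ratio included 0. These were Oas1a, Oas2, Oasl1, Oasl2, Usp18, Ifi211, Ifi213 and Gbp5. The pooled order of the first and the second class did not hold in every library with at least 20 cells of both for 12 members, namely Isg15, Ifit3b, Rtp4, Bst2, Gbp2, Gbp3, Ifi47, Oas1a, Oas2, Oas3, Oasl1 and Usp18. For Gbp3, Oas2 and Usp18 it held in none of these libraries. Classes below the pooled second one were not part of this comparison. Xaf1, for example, was lower in endothelium than in macrophages within library 3, at 24.95 against 32.59 CPM.

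In the pooled cells the transcription factors of the pathway were led by endothelium. Irf1, a factor that interferon-gamma induces, measured 393.8 CPM in endothelium, 128 in neutrophils, 122.3 in monocytes, 101.6 in dendritic cells, 90.07 in macrophages, 82.59 in lymphocytes and 18.01 in tubule. The log2 ratio of endothelium over neutrophils, the next class, was 1.62 (1.42 to 1.83). Irf9, the DNA-binding part of ISGF3, measured 80.62 CPM in endothelium and 21.39 to 35.25 in the immune classes. It measured 8.69 in tubule. Within library 3 Irf9 was lower in endothelium (29.94 CPM) than in macrophages (40.51) and monocytes (32.93). Stat2, its partner, was also highest in endothelium at 51.62 CPM, and so was Irf7, which drives the amplification of type I interferon, at 116 CPM. In tubule these 4 factors made up 41.98% of all member UMIs, against 9.045% in lymphocytes and 17.38% in endothelium, so the low member signal of tubule cells held its largest share in this group and its smallest, 1.093%, in the DNA sensors.

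Isg15, a ubiquitin-like protein that is joined to other proteins, was high in endothelium and neutrophils. Its level was 393.3 CPM in endothelium, 299.9 in neutrophils, 219.3 in dendritic cells, 148.6 in lymphocytes, 110.5 in macrophages, 79.98 in monocytes and 2.88 in tubule. In the pooled cells endothelium exceeded neutrophils by 0.39 on the log2 scale (0.24 to 0.54), but of the 3 libraries with at least 20 cells of both, this order held only in library 2 (456.8 against 366.9 CPM). Neutrophils were higher in library 3 (226 against 128.1 CPM) and in library 1 (969.7 against 591.2 CPM), where 1 neutrophil held 25 of 56 UMIs and the neutrophil level without it, 546.4 CPM, was below that of endothelium. In neutrophils Isg15 alone was 20.12% of the member UMIs, and in monocytes Ifi27l2a took that first place. Usp18, the protease that removes ISG15 and restrains the receptor, was highest in dendritic cells at 28.08 CPM, with endothelium at 21.63 and an overlapping interval (log2 ratio 0.38, -0.45 to 1.16). Endothelium was the higher one within library 1 (36.76 against 26.32 CPM) and library 2 (21.75 against 10.08).

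The IFIT genes, whose products bind foreign RNA and block its translation, were an endothelial group in these cells. All 4 were highest in endothelium, with a summed level of 266 CPM there, against 34.76 to 50.71 in the immune classes and 8.49 in tubule. Ifit1 measured 118.5 CPM in endothelium and 21.25 in neutrophils, the next class, a log2 ratio of 2.48 (2.01 to 2.98). In the other immune classes it lay between 8.47 and 16.29 CPM. Ifit3 measured 84.06 CPM in endothelium and 18.35 in neutrophils, a log2 ratio of 2.20 (1.68 to 2.74). Ifit2 and Ifit3b reached 36.38 and 27.04 CPM in endothelium. A single endothelial cell held 31.58% of the Ifit3 UMIs and 38.18% of the Ifit3b UMIs of the class, and without it the levels were 59.93 and 17.42 CPM, still above the other classes.

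The OAS genes, which encode enzymes that sense double-stranded RNA and activate RNase L, and their OAS-like relatives had another order. In the pooled cells neutrophils had the highest sum at 157.4 CPM, followed by endothelium at 99.79 and monocytes at 77.16, and lymphocytes had 19.1. Within libraries 2 and 3 the sum of endothelium was not above that of monocytes. Oasl2 was 85.96 CPM in neutrophils and 73.25 in endothelium, which did not differ beyond counting error (log2 ratio 0.23, -0.09 to 0.55), and 3.09 to 25.05 in the other immune classes. Oas3 was 35.25 CPM in neutrophils, 21.64 in monocytes and 0.49 in endothelium, where it rested on 1 UMI. Outside tubule (1.02 CPM), Oasl1 ranged from 2.53 CPM in lymphocytes to 20.06 in dendritic cells, where 1 cell held 7 of 15 UMIs and the level without it was 10.86, below the 15.24 of endothelium. Oas1a, the only member highest in macrophages, measured 20.57 CPM there, with monocytes at 16.94 and an overlapping interval (log2 ratio 0.28, -0.44 to 1.08). Oas2 was highest in neutrophils at 14.49 CPM in the pooled cells, but monocytes were above neutrophils in libraries 2, 3 and 4, on 2, 8 and 4 UMIs. Dendritic cells had 0 UMIs of it.

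The PYHIN genes, DNA sensors that lie together on chromosome 1, were spread over different cells one by one. Ifi203 was highest in lymphocytes at 241 CPM, followed by endothelium at 187.3, monocytes at 116.7, dendritic cells at 100.3, macrophages at 64.86 and neutrophils at 7.24. Ifi204 was a monocyte and macrophage gene, with 178.8 CPM in monocytes, 91.4 in macrophages, 57.95 in neutrophils and 0.56 in lymphocytes. Ifi209 was 84.69 CPM in monocytes, 56.16 in dendritic cells, 55.06 in lymphocytes and 3.38 in neutrophils. Ifi205 belonged to dendritic cells, at 177.8 CPM against 10.35 in monocytes (log2 ratio 4.10, 3.22 to 5.14). Ifi211 was level between monocytes (76.22 CPM) and dendritic cells (76.21 CPM), and its end is largely shared with Ifi205. Ifi213 was highest in monocytes at 22.58 CPM, with lymphocytes at 17.42 and a ratio whose interval included 0. Over all 6 genes tubule reached 0.90 CPM.

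The GTPases that attack the vacuoles of intracellular pathogens were led by 3 different classes. Gbp7 measured 112.6 CPM in endothelium and 62.36 in lymphocytes, with 12.03 to 25.6 in the myeloid classes and 7.56 in tubule. Gbp2 measured 90.92 CPM in dendritic cells and 17.88 to 34.9 in the other classes outside tubule. Dendritic cells were above endothelium in library 1 (184.3 against 32.16 CPM) but not in library 2 (50.38 against 50.76). Ifi47, an immunity-related GTPase, measured 64.61 CPM in lymphocytes and 50.14 in endothelium, a log2 ratio of 0.37 (0.02 to 0.72). Gbp3 and Gbp5 were highest in endothelium at 38.84 and 14.75 CPM in the pooled cells. Gbp3 was higher in monocytes within library 2 (47.26 against 45.32 CPM) and library 3 (19.99 against 9.98).

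Among the other effectors, several antiviral genes were endothelial and Ifi27l2a was monocytic. Rsad2, which encodes viperin, an enzyme that makes a chain-terminating nucleotide, measured 404.1 CPM in endothelium, 58.92 in neutrophils and 6.46 to 25.71 in the other immune classes. Cmpk2, its neighbouring gene, a mitochondrial nucleotide kinase, measured 45.23 CPM in endothelium and 2.16 to 6.28 in the immune classes. Slfn5, of the schlafen family, measured 369.7 CPM in endothelium, 125.1 in monocytes and 10.11 in lymphocytes. These genes set endothelium apart from the next class by log2 ratios of 2.78 (2.50 to 3.06) for Rsad2, 2.85 (2.0 to 3.81) for Cmpk2 and 1.56 (1.30 to 1.84) for Slfn5. Bst2, which encodes tetherin and holds budding virus at the cell surface, was 411 CPM in endothelium and 332.6 in macrophages, and was 25.6 in neutrophils. Ifi27l2a measured 884.5 CPM in monocytes, 521 in macrophages, 513.8 in lymphocytes, 273.3 in neutrophils, 201.6 in endothelium and 195.2 in dendritic cells. Trim30a was highest in neutrophils at 114 CPM, with dendritic cells next at 85.57. Ifi44 (88.49 CPM), Rtp4 (100.3 CPM) and Xaf1 (70.79 CPM) were highest in endothelium, Zbp1, a sensor of left-handed nucleic acid, in monocytes (72.45 CPM), and Phf11b in dendritic cells (156.4 CPM). Neutrophils had 0 UMIs of Ifi44, which allows up to 1.45 CPM.

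Set against tubule, nearly every member was higher in each of the other 6 classes. A member counted as higher when its CPM was at least 2-fold that of tubule and both classes together held at least 20 UMIs. In endothelium 36 of 36 members passed, against 31% of all genes tested. In monocytes 36 of 37 passed (17.1% of genes), in macrophages 36 of 37 (20.6%) and in lymphocytes 36 of 37 (23.3%). In neutrophils 33 of 36 passed (18.2%), and in dendritic cells 32 of 35 (17.2%). With the 95% interval also above 1-fold, a rule added after the data were seen, the counts were 35, 34, 36, 34, 31 and 30 in the same order. The genome-wide shares under that rule were 27%, 13.6%, 18.8%, 19.6%, 14.2% and 13.8%. Because the 20 UMIs could nearly all lie in tubule, some members passed the 2-fold mark on very few UMIs in the other class. In endothelium Ifi209 passed on 1 UMI and Ifi205 on 3 UMIs in 1 cell. Ifi205 in neutrophils passed on 1 UMI and Ifi204 in lymphocytes on 2.

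**Figure D2:**
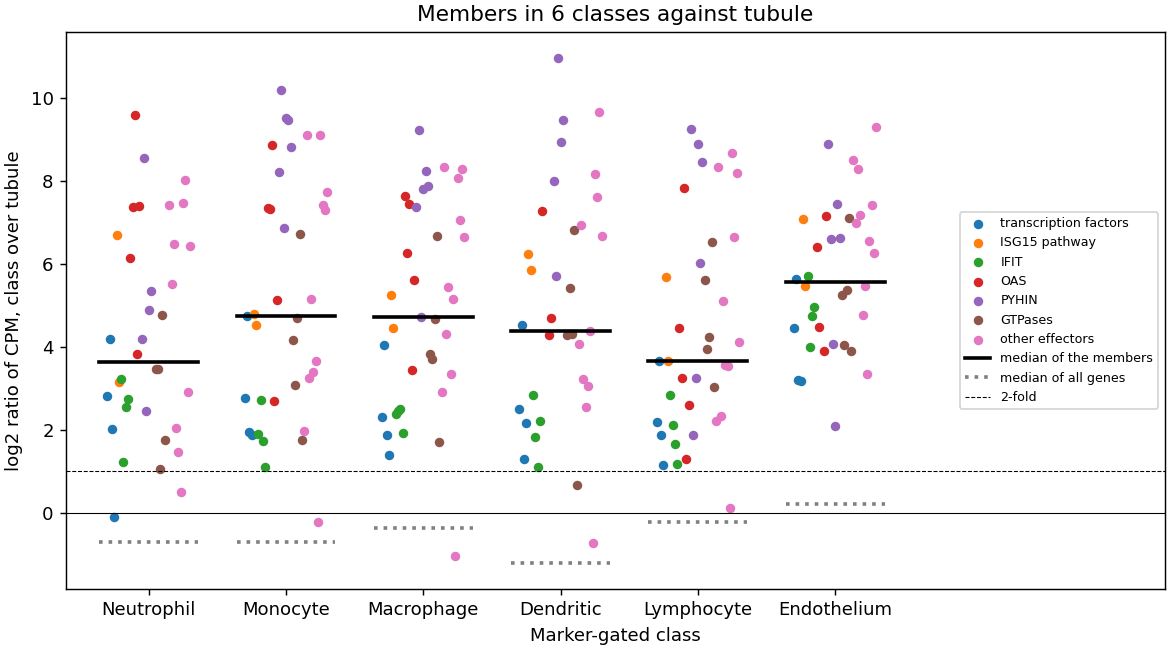
log2 ratio of CPM of each member (points, coloured by role) in 6 classes over tubule, with the median of the members as a solid line, the median of all genes as a dotted line and 2-fold as a dashed line. The medians of the members lie between 3.65 and 5.57 and those of all genes between -1.22 and 0.22; members with 0 UMIs in a class are not drawn.

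The median log2 ratio of the members over tubule was 5.57 in endothelium (0.22 over all genes), 4.75 in monocytes (-0.71), 4.73 in macrophages (-0.38), 4.40 in dendritic cells (-1.22), 3.66 in lymphocytes (-0.22) and 3.65 in neutrophils (-0.70). In endothelium the ratios were 634.7-fold for Slfn5, 477.7-fold for Ifi203, 315-fold for Rsad2 and 136.5-fold for Isg15, and 9.13-fold for Stat2, which tubule cells also carried. Cmpk2 was an exception. It was the only member at least 2-fold lower in macrophages (35.6% of genes), at 2.16 CPM against 4.40 CPM in tubule, a log2 ratio of -1.03 (-1.94 to -0.25), and it missed the 2-fold mark in every other immune class, where the interval included 0. Near-empty barcodes held 4.40 CPM of Cmpk2 when pooled, and its pooled levels in macrophages and in tubule were at or below this. Against near-empty barcodes of the same library, tubule was above in libraries 1, 2 and 3 and below in 4 and 5. The values in libraries 1, 2 and 3 were 4.63 against 3.40, 4.59 against 2.02 and 5.51 against 4.57 CPM. Ifi44 in neutrophils and Oas2 in dendritic cells had 0 UMIs, which allows up to 1.45 and 4.01 CPM. These limits lie above the tubule levels of 0.24 and 0.09 CPM, so no direction is given for them. Stat2 in neutrophils (log2 ratio -0.09, -1.10 to 0.75) and Gbp7 in dendritic cells (0.67, -0.46 to 1.60) did not differ from tubule beyond counting error. The count of members that were also higher in every library compared was 30 in endothelium, 28 in macrophages, 27 in monocytes and dendritic cells, 22 in neutrophils and 20 in lymphocytes, against 22.6%, 9.53%, 10.2%, 13.3%, 9.03% and 11.1% of genes. The summed level was above that of tubule in each library compared, by 3.17 to 5.21 on the log2 scale in neutrophils, 3.89 to 6.10 in monocytes, 3.97 to 6.23 in macrophages, 3.84 to 5.09 in dendritic cells, 2.99 to 5.15 in lymphocytes and 3.88 to 6.06 in endothelium.

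Monocytes and neutrophils carried different members. Of 32 members tested, 16 were at least 2-fold higher in monocytes (14.3% of genes) and 6 at least 2-fold lower (12.3%). Among the members tested, the 5 with the highest log2 ratios were Phf11b and 4 DNA sensors, at 4.65 (3.55 to 6.0) for Ifi209, 4.55 (2.54 to 7.67) for Ifi213, 4.38 (2.70 to 6.73) for Phf11b, 4.13 (3.14 to 5.31) for Ifi211 and 4.01 (3.23 to 4.89) for Ifi203. Bst2 (2.20, 1.73 to 2.69) and Ifi27l2a (1.69, 1.54 to 1.85) were higher as well. Those lower in monocytes were Rsad2 (-2.27, -3.22 to -1.44), Oasl2 (-2.27, -3.03 to -1.58), Isg15 (-1.91, -2.25 to -1.58), Ifit1 (-1.33, -2.55 to -0.27), Rtp4 (-1.33, -1.99 to -0.71) and Oasl1, whose interval included 0 (-1.14, -2.57 to 0.08). The 6 lower members did not keep that order in each library. Isg15 was lower in monocytes by 1.58 on the log2 scale in library 2 and by 2.46 in library 3, and higher by 0.44 in library 4, where 1 of 25 monocytes held 11 of 24 UMIs and the level without it was 159.6 CPM against 209.2 in neutrophils. Ifit1, Rtp4 and Oasl1 were likewise higher in monocytes in library 4, on 3, 6 and 3 UMIs, with all 3 of Ifit1 in 1 cell. Oasl2 and Rsad2 were lower in all 3 libraries with at least 20 monocytes. Of the members higher in monocytes, 14 were so in each of these libraries (10.7% of genes).

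Monocytes and macrophages were much closer in the pooled cells. The summed level was 0.34 higher on the log2 scale in monocytes (0.28 to 0.41). Of 35 members, 7 were at least 2-fold higher in monocytes (8.83% of genes), namely Ifi205, Ifi209, Oas3, Ifi211, Slfn5, Oas2 and Zbp1. At least 2-fold lower were 2 (12.9%), namely Bst2 and Rsad2. For Rsad2 1 macrophage held 31 of 155 UMIs. Without it macrophages were at 20.58 CPM against 12.23 in monocytes, under 2-fold. In library 4 Rsad2 was higher in monocytes, at 11.8 CPM on 1 UMI against 6.39. In the pooled cells Ifi205 was below its level in near-empty barcodes (23.45 CPM) in both classes, at 10.35 and 2.32 CPM. That level was 79.95 CPM in library 4 and 0 to 12.56 in the other libraries. In library 2 Ifi205 was above it, at 47.26 CPM in monocytes and 2.20 in macrophages against 0.81, on 5 UMIs in each class. In libraries 3 and 4 both classes were below it. The log2 ratio of the summed level differed between libraries. It was 1.42 in library 2 and 1.25 in library 4, but -0.07 in library 3, which held 214 of the 281 monocytes. Without library 3 the log2 ratio was 1.30 and 21 members passed 2-fold, and without library 2 it was 0.07 and 2 members passed. The shares of genes that passed with a library left out are not given here. Members higher in each of the 3 libraries numbered 5 (4.32% of genes).

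The members differed between libraries within each class, and library 3 stood apart in opposite directions in different classes. In endothelium the summed level was 4617.7 CPM in library 1, 4669.7 in library 2 and 1836.2 in library 3. In monocytes it was 4111.6 CPM in library 2, 1845.4 in library 3 and 5037.4 in library 4. In tubule it was 69.24, 90.27, 124.4, 73.4 and 40.62 CPM in libraries 1 to 5, so that library 3 was the highest. Other libraries held under 20 cells of the class, and endothelium of libraries 4 and 5, with 17 and 19 cells, measured 2257.8 and 4233.5 CPM. The cells placed in no gate, most of them in library 3, held 298.9 CPM there and 542.1 to 831.5 CPM in the other libraries. How leaving them out bears on the library values was not tested.

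**Figure D3:**
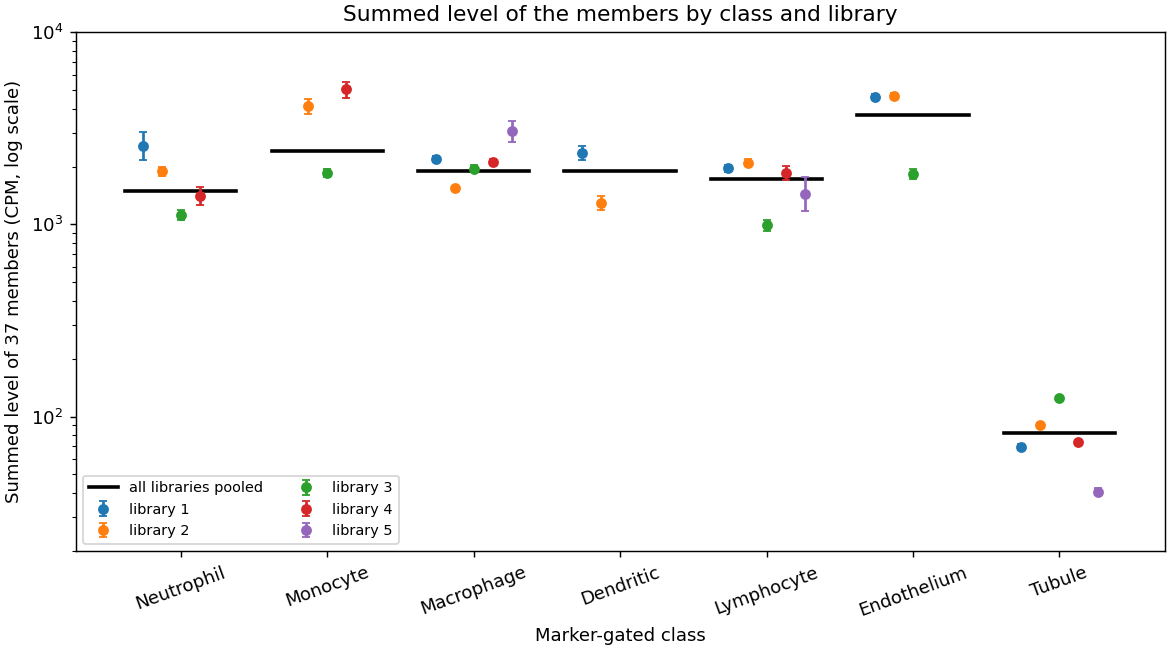
Summed level of the 37 members in each class and library (points, CPM on a log axis, with 95% counting intervals; libraries with under 20 cells of a class are not drawn) and over all libraries (black lines). Library 3 is lowest in neutrophils, monocytes, lymphocytes and endothelium and highest in tubule; after subtraction of near-empty barcodes, neutrophils were instead lowest in library 4.

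Library 3 was the lowest of the libraries compared for 29 of 31 members in endothelium (41.5% of genes) and for 20 of 22 in monocytes (24.3%). In tubule it was the highest for 25 of 35 members (44.3% of genes), and library 5 was the lowest for 28 of 35 (29.9%). Irf1 in endothelium measured 477.9 CPM in library 1, 676.2 in library 2 and 134.7 in library 3. Isg15 measured 591.2, 456.8 and 128.1 CPM there, Rsad2 548.3, 552.9 and 111.4, Slfn5 405.9, 514.8 and 192.9, and Ifit1 162.3, 175.8 and 29.94. Each of these was lowest in library 3. Ifit3 and its near copy Ifit3b appeared to run the other way, and this rested on 1 cell. Ifit3 measured 68.92 CPM in library 1, 54.38 in library 2 and 131.4 in library 3, where 1 cell held 54 of the 79 Ifit3 UMIs. Ifit3b measured 13.78, 21.75 and 46.57 CPM, with 21 of its 28 UMIs in library 3 in the same cell. Without that cell, an alternative chosen after the data were seen, library 3 had 48.14 CPM of Ifit3 and 13.48 of Ifit3b and a summed level of 1966.1 CPM. With the cell with the most UMIs left out in each library, Ifit3 was 64.22, 40.59 and 48.14 CPM and Ifit3b 11.19, 18.37 and 13.48, so that library 3 was neither highest nor lowest.

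In monocytes Ifi27l2a measured 1625.8 CPM in library 2, 698.6 in library 3 and 1769.6 in library 4. Ifi204 measured 293, 150.5 and 294.9 CPM, Slfn5 217.4, 92.92 and 306.7, and Isg15 122.9, 41.17 and 283.1. Without the cell with the most Isg15 UMIs the values of libraries 2 and 4 were 67.88 and 159.6 CPM. Library 3 was thus low for a DNA sensor, a schlafen gene and the ubiquitin-like modifier alike. In tubule Ifit1 measured 0.89 (0.58 without 1 cell), 1.52, 5.73, 1.42 and 0.45 CPM in libraries 1 to 5, and Isg15 measured 1.73, 2.02, 6.26, 2.10 and 1.11. Irf1 did not share the peak, with 18.08, 25.14, 24.02, 13.49 and 6.98 CPM.

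**Figure D4:**
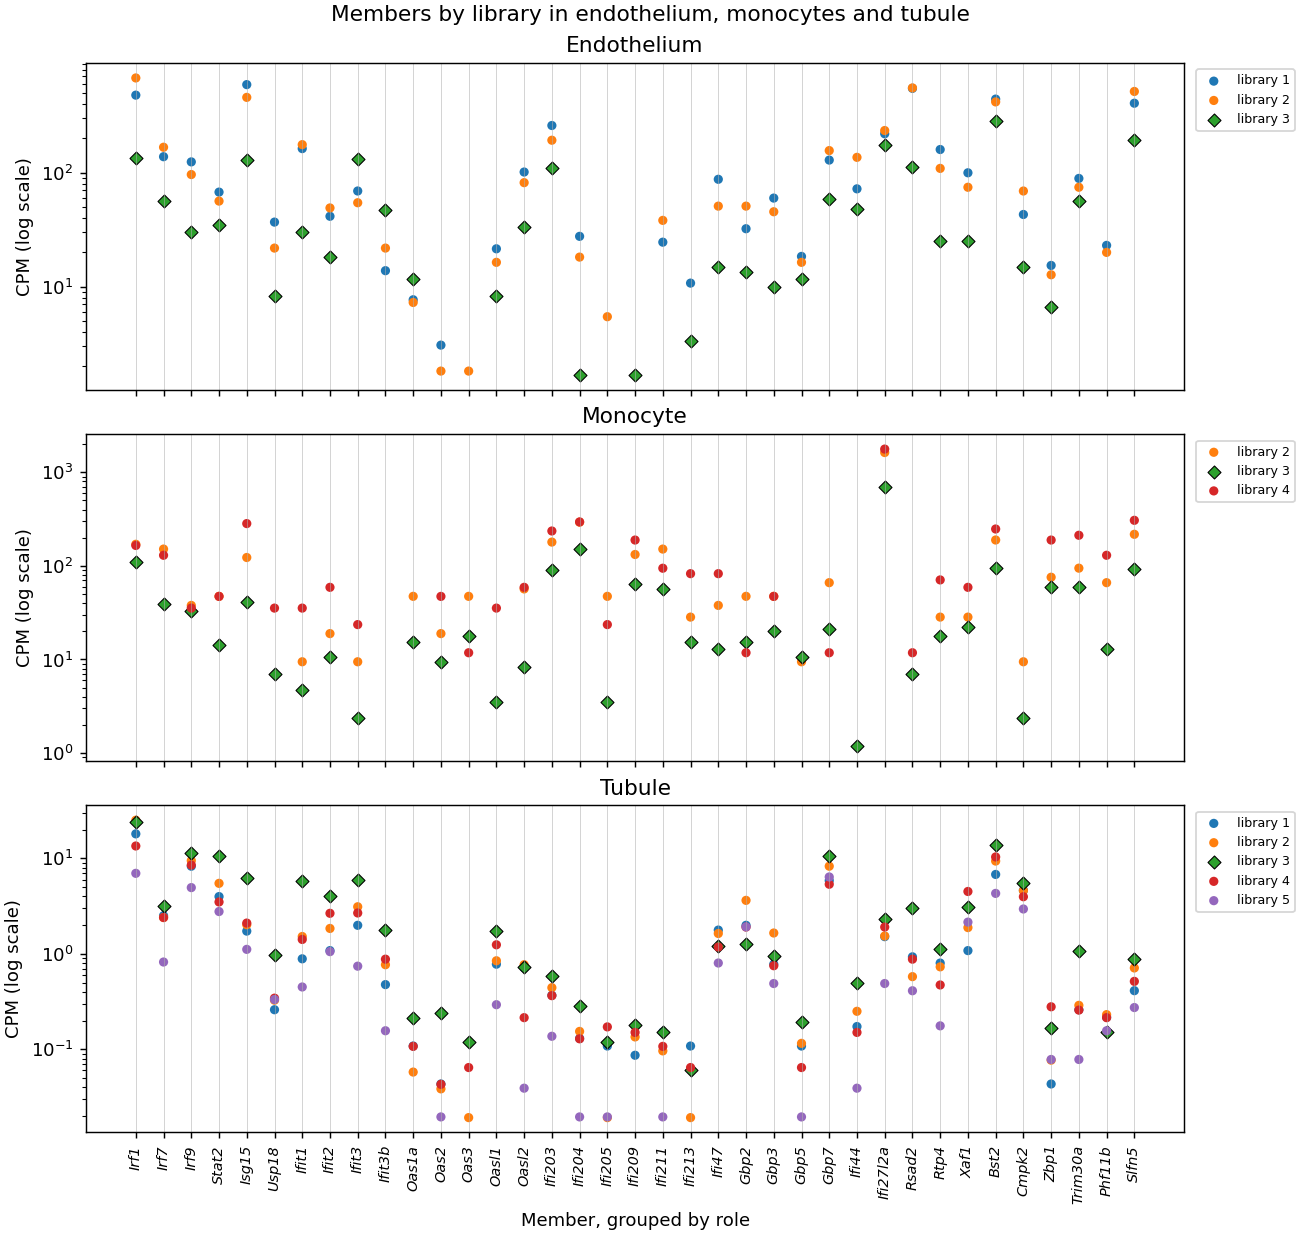
CPM (log axis) of each member in endothelium, monocytes and tubule, with 1 colour per library and library 3 as outlined diamonds; values of 0 are not drawn. Library 3 was lowest for 29 of 31 members tested in endothelium, where Ifi211 and Phf11b had 0 UMIs in it and no diamond. It was highest for 25 of 35 in tubule. The exceptions in endothelium are Ifit3 and Ifit3b, where 1 cell held 54 of 79 and 21 of 28 UMIs.

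In neutrophils Isg15 and Irf7 were highest in library 1, which held only 61 of these cells. The summed level of neutrophils was 2562.7, 1884.8, 1116.5 and 1409.2 CPM in libraries 1 to 4, from 61, 598, 528 and 190 cells. Isg15 measured 969.7, 366.9, 226 and 209.2 CPM, and 546.4 in library 1 without the 1 cell that held 25 of its 56 UMIs there. Irf7 measured 207.8, 48.01, 27.99 and 38.43. Irf1 stayed between 121.3 and 170.8 CPM, with library 1 at 71.93 without 1 cell that held 4 of 8 UMIs, and Trim30a between 89.68 and 145.3. In macrophages the sum was 2199.0, 1541.3, 1942.9, 2111.6 and 3057.2 CPM in libraries 1 to 5, with 49 cells in library 5, which was the highest for 18 of 34 members (27.5% of genes). There Isg15 was highest in library 1 at 226.8 CPM and lay between 65.7 and 79.07 in the others, while Bst2 stayed between 296.8 and 371.7 CPM. In lymphocytes the sum was 1961.5, 2097.3, 989.9, 1860.2 and 1444.6 CPM, and library 3 was the lowest for 11 of 28 members (17.5% of genes). The mix of cells differed, with 157 T, 84 NK and 233 B cells in library 3 against 465, 25 and 89 in library 1, and T cells held the highest sums. Within T cells the sum was 2204.5 CPM in library 1 and 1446.1 in library 3, and within B cells 968 and 718.6. In dendritic cells it was 2360.2 CPM in library 1 and 1292.3 in library 2, and Ifi205 measured 267.6 and 88.17 CPM in them.

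RNA from tubule cells differed between libraries as well. Proximal tubule marker UMIs per 10000 were 2.59, 7.34 and 12.32 in endothelium of libraries 1, 2 and 3. In neutrophils they were 9.87, 7.65, 23.55 and 24.43 in libraries 1 to 4. Macrophages and lymphocytes had the most in library 5, at 22.06 against 9.71 in library 3 and at 21.36 against 20.8. In monocytes these marker UMIs were 3.97, 14.23 and 14.86 per 10000 in libraries 2, 3 and 4. With the profile of near-empty barcodes (ranks 45000 to 90000 by UMI total) of the same library subtracted, the summed level was 4906.3, 5218.4 and 2308.1 CPM in endothelium of libraries 1, 2 and 3. It was 4354.3, 2417.1 and 5578.2 CPM in monocytes of libraries 2, 3 and 4, with 6.301%, 26.56% and 12.25% of UMIs taken as ambient. The order of the libraries was the same as without the subtraction in both classes. In neutrophils it was not, since library 3 (1821.6 CPM, 43.95% of UMIs taken as ambient) then lay above library 4 (1619.1 CPM). In lymphocytes as a whole library 3 was again the lowest at 1485.5 CPM, but not within T cells, where library 5 was lowest (1951.9 against 2031.4 CPM), nor within B cells, where library 1 was (1076.7 against 1116.1 CPM). Within NK cells library 3 was again the lowest, at 908.1 CPM against 982.3 to 1844.2.

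The tubule levels were compared with those of near-empty barcodes. Near-empty barcodes held the members at a summed level of 269 CPM, above the 82.55 CPM of tubule cells, and by library at 117.4, 246.6, 205.4, 608.6 and 147.8 CPM. Pooled over libraries, 33 of 37 members in tubule were at or below their level in near-empty barcodes. Irf1 (18.01 against 17.81 CPM), Irf9, Stat2 and Gbp7 were above it. Against near-empty barcodes of the same library, each of these genes was above in libraries 1 and 3 and below in libraries 2 and 4. In library 5 Stat2 and Gbp7 were above, and Irf1 and Irf9 were below. The part of free RNA in the tubule levels was not tested. Within library 3 Ifit1 was above that library's near-empty barcodes, at 5.73 against 4.49 CPM, and Isg15 was below them, at 6.26 against 9.15. Single tubule cells held up to 24 UMIs of Ifit1 and 52 of Rsad2. In the pooled neutrophils 7 members were at or below their pooled near-empty level, among them Bst2 (25.6 against 31.71 CPM), Ifi203 (7.24 against 9.92) and Phf11b. The near-empty level of Ifi203 was 27.94 CPM in library 4 and 4.63 to 8.49 in the other libraries. In the pooled endothelium there were 2 such members, Ifi205 and Ifi209.

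The members also differed within the classes, and among lymphocytes T cells held the most. T cells held 2103.1 CPM (2046.3 to 2161.1, 1110 cells), against 884.4 in B cells (818.6 to 954.1, 414 cells) and 874.9 in NK cells (777.3 to 981.4, 182 cells). Isg15 was 198.6 CPM in T cells and 13.24 in B cells, Ifi27l2a was 667.5 and 235.7, and Ifi209 was the reverse at 50.97 and 74.14. T cells were above B cells in each of libraries 1 to 4, for example at 2204.5 and 968 CPM in library 1.

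Macrophages with a UMI of Gpnmb, a lysosomal glycoprotein of lipid-laden and repair-associated macrophages, held 809.1 CPM (769.2 to 850.6, 155 cells), and those without held 2400.0 (2353.0 to 2447.8, 953 cells). Bst2 differed little between them, at 299.3 and 347.9 CPM, while Isg15 was 25.25 and 149.7 and Ifi27l2a 136.8 and 697.9. The sum was lower with Gpnmb in libraries 2 (535.6 against 2381.7 CPM), 3 (1456.8 against 2039.8) and 4 (1013.1 against 2963.9). Cells with a Gpnmb UMI were deeper, with a median of 9707.0 UMIs against 3515.0. Macrophages with a UMI of Arg1, the arginase of alternatively activated cells, held 1179.8 CPM and those without held 2109.9. That order was the reverse in library 3, at 2361.3 and 1737.4 CPM.

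Among monocytes, classical cells with Ly6c2 held 2667.1 CPM and non-classical cells 1963.3, but within library 3 the values were 1896.1 and 1828.3. Slfn5 was 165.9 CPM in classical and 40.62 in non-classical monocytes, and Ifi204 was 178 and 182.8. Neutrophils with a Siglecf UMI (1325.3 CPM, 1165.2 to 1501.4) and without one (1507.2, 1452.3 to 1563.7) overlapped in their pooled intervals. Within libraries those with Siglecf were lower, at 1421.6 against 1952.3 CPM in library 2 and 1165.0 against 1475.1 in library 4, and 511 of the 1249 cells without Siglecf were in library 3. The pooled intervals also overlapped between dendritic cells with (1894.4 CPM) and without (1903.8 CPM) the migration receptor Ccr7. In tubule the sum was 72.36 CPM in proximal cells, 196.6 in distal convoluted, 230.9 in thick ascending limb, 289.4 in intercalated and 343.3 in principal cells. Tubule cells with a UMI of the injury marker Havcr1 held 124.8 CPM against 78.19 without, and those with a UMI of Vcam1 held 198.6 against 79.74. Both orders were the reverse in library 3, at 108 against 129.4 CPM for Havcr1 and 89.87 against 124.7 for Vcam1, and library 3 held 2007 of the 2880 cells with Havcr1. Pooled over libraries, all these tubule levels except that of principal and intercalated cells lay below the 269 CPM of near-empty barcodes. Library 4 had the highest near-empty level, at 608.6 CPM. Against near-empty barcodes of the same library, thick ascending limb was lower in libraries 3 and 4. It was higher in libraries 1 (267.4 against 117.4 CPM), 2 (381.3 against 246.6) and 5 (152.9 against 147.8). Distal convoluted cells were lower in libraries 2 and 5 and higher in 1 (241.4 CPM) and 3 (276.8 against 205.4).

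To compare cells at 1 depth, each cell was thinned to 1000 UMIs, which left out 323 neutrophils, 51 endothelial cells and 5078 tubule cells that were shallower. No member was then seen in 10.71% of endothelial cells, 22.66% of monocytes, 25.75% of macrophages, 29.41% of dendritic cells, 32.21% of lymphocytes, 44.79% of neutrophils and 93.42% of tubule cells. At least 5 different members were seen in 25.32% of endothelial cells, 8.88% of macrophages and 3.22% of neutrophils. Endothelium of library 3 differed in this, with at least 5 members in 5.62% of cells and none in 22.47%, against 36.46% and 9.38% in library 1 and 34.44% and 3.33% in library 2. The tenth of neutrophils with the most member UMIs held 50.77% of them, against 31.88% in endothelium.

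**Figure D5:**
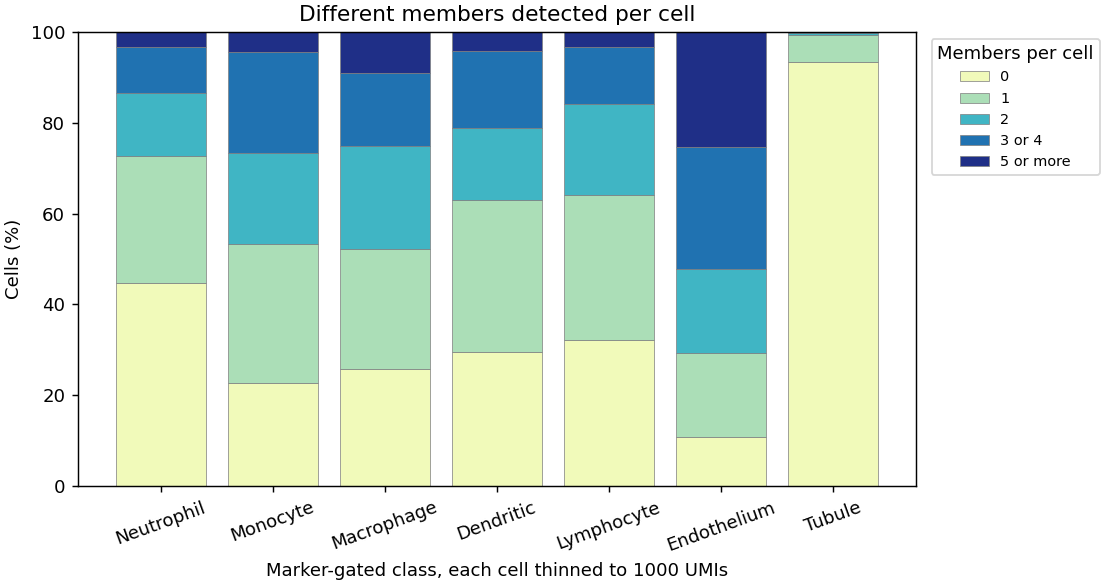
Share of cells (%, stacked bars from 0 to 100) by the number of different members detected in a cell after thinning to 1000 UMIs, for the 7 classes. The top segment, 5 or more members, is 25.32% in endothelium and 3.22% in neutrophils, and the bottom segment, 0 members, is 93.42% in tubule. Within endothelium the top segment was 36.46%, 34.44% and 5.62% in libraries 1, 2 and 3.

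Members tended to occur in the same cells. Neutrophils with an Ifit3 UMI held 9.5 UMIs of other members per cell (14 cells), and those without held 1.48. Macrophages with an Ifit3 UMI held 9 (18 cells) against 2.26, and lymphocytes 9.09 (11 cells) against 1.67. In endothelium the values were 7.67 and 3.68. As a description over single cells, which share libraries and free RNA, the Spearman correlation of Isg15 with the sum of the other members was 0.28 in endothelium, 0.26 in neutrophils and 0.06 in tubule.

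Other genes of the pathway were counted from lists of its ligands, receptors, signalling genes and sensors. Of 21 interferon genes only Ifng and Ifnb1 had at least 20 UMIs in the 7 classes, while the numbered Ifna genes had 0 and Ifnab had 3, all in tubule. Ifng had 383 UMIs, 361 of them in lymphocytes at 101.4 CPM. Ifnb1 had 34, with 22 in macrophages (3.65 CPM) and 6 in endothelium (2.95 CPM). Of the 6 receptor chains, at least 2-fold higher levels than in tubule were found for 6 in neutrophils, 5 in monocytes, macrophages and endothelium, and 4 in dendritic cells and lymphocytes. Ifnlr1, a chain of the receptor for interferon-lambda, counted as higher in neutrophils on 4 UMIs, at 1.93 CPM against 0.86 in tubule. It had 0 UMIs in monocytes and dendritic cells and 1 in lymphocytes, and no direction is given for it there. Between 17.1% and 31% of all genes passed the same fold in these classes, as given above. Ifnar1 ranged from 14.91 CPM in tubule to 99.16 in lymphocytes, Ifnar2 was highest in macrophages at 192.7, and Ifngr1 in lymphocytes at 546.1. Endothelium, where the pooled members were highest, had 50.63 CPM of Ifnar1, 154.4 of Ifnar2, 83.57 of Ifngr1 and 32.44 of Ifngr2. Il10rb, another of the receptor chains, was at 139.6 CPM there and at 137.2 in neutrophils, on 284 UMIs in each class.

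Of 9 signalling genes, 6 to 8 were at least 2-fold higher than in tubule in each class. Irf8, a factor of myeloid and dendritic cell development, was highest in dendritic cells at 490.7 CPM, and Socs1, an inhibitor of JAK kinases, was highest in endothelium at 22.61 CPM. Of 10 sensors, 8 or 9 had enough UMIs in a comparison, of which 5 passed in neutrophils, monocytes, dendritic cells and lymphocytes and 6 in macrophages and endothelium. Mavs, the adaptor of the RNA sensors, was at least 2-fold lower in lymphocytes (33.9% of genes) and dendritic cells (52.9%), at 9.55 and 8.02 CPM against 21.71 in tubule. Tlr3 rested on 1 UMI in monocytes and in lymphocytes. Tlr7 was highest in monocytes at 27.29 CPM and Tmem173, which encodes STING, in dendritic cells at 58.83. Of 40 further interferon-stimulated genes, 39 had a row. At least 2-fold higher levels than in tubule were found for 33 of 34 tested in endothelium, 33 of 38 in lymphocytes, 31 of 37 in macrophages, 27 of 36 in monocytes, 27 of 34 in dendritic cells and 23 of 35 in neutrophils, against 31%, 23.3%, 20.6%, 17.1%, 17.2% and 18.2% of all genes. Samd9l was at least 2-fold lower in macrophages, dendritic cells and endothelium (27.8% of genes), at 30.02, 32.09 and 47.68 CPM against 117.8 in tubule. The others that came out lower were 3 in neutrophils (42.5% of genes), 3 in monocytes (44.2%) and 1 in dendritic cells. All of these had 0 UMIs there, which allows up to 1.45, 2.82 and 4.01 CPM, above their tubule levels, so no direction is given for them. Ifitm3, which blocks virus entry, reached 3548.4 CPM in monocytes and 3009.5 in endothelium, and Slfn2 reached 556.4 CPM in neutrophils.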

How the data were processed

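The deposited values are raw UMI counts per gene (32285 genes) and barcode (10474594 barcodes over 5 merged libraries), made by the authors with Cell Ranger (6.0 per the labels, 6.0.1 in the file header) on mm10 from 3′ libraries. Reads were not aligned again.

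Cells were called per library in 2 steps as Cell Ranger does. The second was against the ambient profile of barcodes at ranks 45000 to 90000 (10000 simulations, adjusted p at most 0.01, at least 500 UMIs). It took at most 20000 candidate barcodes per library. Library 3 reached this limit, so its lowest candidate had 661 UMIs. Cells with under 200 genes or over 25% mitochondrial counts were left out, and 57511 of 70164 called cells remained. Library totals over all barcodes ranged from 82426945 to 139382799 UMIs.

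Non-tubule gates used markers seen in at most 10% of kept cells. They asked for at least 3 of them. If another class also reached 3, its share of markers detected had to be under 2/3 of that of the first. Tubule asked for at least 50 proximal marker UMIs per 10000 or at least 2 distal markers. The 1275 cells that passed both a tubule and another gate were left out, 387 of them with the neutrophil gate. This scoring was set after the files were seen. The 38 members, the marker and pathway lists and the alternatives were chosen with earlier results of these data known. Within each role group, the members with the most UMIs were described in full and the others by their highest class. Doublets were kept in the main values, and Scrublet at 0.8% per 1000 cells was an alternative.

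The labels give 1 sample per group, and the libraries could not be assigned to groups and were not used as replicates, so no test was made and ratios within libraries were given. Intervals are exact at 95% (Poisson for CPM, conditional binomial for ratios) and cover counting error only. A count of 0 allows up to 3 UMIs. Python 3.11.15, NumPy 2.4.6, SciPy 1.17.1, pandas 2.3.3, numba 0.67.0, Scanpy 1.11.5 and matplotlib 3.10.9 were used, and the calling and ratio steps were tested on simulated data. Alternatives changed the gate, the filters, the thinning, the fold, the averaging, ambient subtraction and the libraries included. The rule with the interval above 1-fold and the values without 1 cell or without Bst2 were added after the data were seen. Values of 1 signalling gene of the pathway are not reported here.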

Additional observations from a re-analysis of the deposited data

Results flagged for a closer look

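A small gate outside the 7 classes had a higher summed level of the members than any of them, but not without Bst2. The plasmacytoid dendritic gate, defined by markers such as Siglech and Ccr9, took 28 cells, 2 to 9 per library, with a summed level of 5649.3 CPM (95% interval 5191.4 to 6136.7). Each of the 7 classes was below this, endothelium being the nearest at 3694.3 CPM. Bst2, which mature plasmacytoid cells of the mouse are known to carry, accounted for 3041.2 CPM, Ifi27l2a for 1007.0, Irf1 for 412.9 and Irf7, the master factor of their interferon production, for 241.7. Without Bst2 the gate was at 2608.2 CPM (2300.2 to 2945.9), below endothelium without it at 3283.3 (3205.1 to 3363.0). Isg15 measured 90.63 CPM. The difference was not tested between samples.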

How the results depend on the processing

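No paired analysis was possible because the labels give 1 sample per group and no replicate numbers pair the groups. Classes share libraries, and their ratios within libraries stand in the report with no test. The counts of members against tubule stayed within 1.5 times their value under every alternative tried, except 21 in dendritic cells thinned to 1000 UMIs and 20 in monocytes under the stricter gate, which left 25 monocytes. The stricter gate left 7 dendritic cells and gave no value there. Monocytes against neutrophils (16) gave 7 at 4-fold, 7 under the stricter gate and 9 after thinning. Monocytes against macrophages (7) gave 12 at 1.5-fold, 1 at 4-fold, 3 with the mean over cells, 11 with only cells that pass 1 gate and 3 after thinning. With each library left out in turn it gave 2 to 21, the lowest without library 2 and the highest without library 3. Of 159 such counts 146 stayed within 1.5 times and 13 did not. The shares of all genes beside these alternative counts are not given here. The log2 ratio of the summed levels kept its sign in all 135 values, but 102 of them, and 74 of 118 summed levels, moved by more than the counting interval. Monocytes over macrophages fell to 0.07 on the log2 scale without library 2. The monocyte level was 4663.5 CPM without library 3, and without Ifi27l2a it was 1524.4, with macrophages at 1377.4 and lymphocytes at 1216.0. With cells that also pass the tubule gate kept, neutrophils were at 917.5 CPM. Apart from the left-out cells, the cause was not tested. Depth limits members with under 20 UMIs in a class.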
